A study of Mus musculus with 18 samples.

Results

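The genes described here were 7 ADP-ribosyltransferase-family and partner genes that interferon is known to raise (Parp9, Dtx3l, Parp14, Parp10, Parp11, Parp12 and Zc3hav1), with Zc3hav1l and Parp1 as contrasts. They were 9 of the 50600 genes in the table, and all 9 were among the 16927 that passed the filter on low counts. The 7 genes were chosen by name as interferon-induced with earlier results of these tumors known, so their levels in agonist-treated against PBS tumors are given as a description, with no test. The 9 genes were tested only in the other comparisons. The genes of the surrounding lists were tested against PBS as well, and since the lists were chosen with results known, those tests are not independent evidence.

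RNA was measured in whole subcutaneous B16F10 tumors, a mouse melanoma line grown in C57BL/6 mice, that were injected directly with a STING agonist. The agonist, a cyclic dinucleotide called CL656 in the sample titles and CDN2 in the protocol, was given free (CDN2) or loaded on extracellular vesicles (exoCDN2) from human HEK293 cells that overexpress PTGFRN. The 18 tumors made 9 groups of 2. After 1 dose these were PBS, unloaded vesicles (EVs), CDN2 at 20 µg, CDN2 at 100 µg and exoCDN2 at 0.1 µg of agonist, and after 2 doses they were PBS, CDN2 at 20 µg, exoCDN2 at 0.1 µg and CDN2 of an amount the labels do not give. The second dose followed the first by 3 days, and tumors were taken 24 h after the last dose. In every comparison of 2 doses with 1, dose number and time since the first dose therefore cannot be told apart. The labels name no genetic change in any group and no age. All groups carried the same tumor line, and RNA came from whole tumors, so a value belongs to all the cells of a tumor. Nothing in the labels says that tumors of a group came from separate batches or litters, so p-values measure the spread between these samples.

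ADP-ribosyltransferases (PARPs) take ADP-ribose from NAD+ and attach it to proteins or nucleic acids. PARP1 builds long chains of it at damaged DNA, whereas PARP10, PARP11, PARP12 and PARP14 attach single units, and their genes belong to the set that interferon receptors switch on through factors such as STAT2 and IRF9. PARP9 works as a pair with DTX3L, a ubiquitin ligase. ZC3HAV1, also called ZAP or PARP13, has lost the transferase activity and binds viral RNA rich in CpG with the help of TRIM25, and Zc3hav1l encodes a shorter relative of it.

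Several of these genes are neighbours in the mouse genome (GRCm38). Parp14 (ENSMUSG00000034422, chr16:35832874-35871544, minus strand), Dtx3l (ENSMUSG00000049502, chr16:35926511-35939151, minus) and Parp9 (ENSMUSG00000022906, chr16:35938470-35972605, plus) lie in one stretch of chromosome 16. Parp9 and Dtx3l start head to head, and their gene bodies share 682 bases, of which 458 are exonic in both. Zc3hav1 (ENSMUSG00000029826, chr6:38305286-38354603) and Zc3hav1l (ENSMUSG00000047749, chr6:38287396-38299259) follow each other on the minus strand of chromosome 6. Parp12 (ENSMUSG00000038507, chr6:39086410-39118349) lies at higher coordinates on the same strand of that chromosome. Parp11 (ENSMUSG00000037997, chr6:127446840-127494261, plus), Parp10 (ENSMUSG00000063268, chr15:76231174-76243441, minus) and Parp1 (ENSMUSG00000026496, chr1:180568924-180601254, plus) stand apart from all of these. The strand setting of the counting was not given in the sources used here, so reads from the shared part of Parp9 and Dtx3l may count for either gene. Parp10 likewise shares 205 exonic bases with Plec on its own strand.

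The windows below mark exact matches to the letters of interferon response sites near start sites of the family, with no measure of binding. They are RefSeq promoter windows of 300 bases (250 before to 50 after the start, build GRCm38.p6), each printed on its gene's strand with GAAA or its reverse complement TTTC in capitals, the half-site of the interferon-stimulated response element. Parp11 (first window, chr6:127446590-127446889, plus) is shown for its many half-sites, Dtx3l (chr16:35938978-35939277, minus) because it overlaps the stretch shared with Parp9, and Zc3hav1 (chr6:38354554-38354853, minus) and Zc3hav1l (chr6:38299210-38299509, minus) as the contrasted pair.
Parp11: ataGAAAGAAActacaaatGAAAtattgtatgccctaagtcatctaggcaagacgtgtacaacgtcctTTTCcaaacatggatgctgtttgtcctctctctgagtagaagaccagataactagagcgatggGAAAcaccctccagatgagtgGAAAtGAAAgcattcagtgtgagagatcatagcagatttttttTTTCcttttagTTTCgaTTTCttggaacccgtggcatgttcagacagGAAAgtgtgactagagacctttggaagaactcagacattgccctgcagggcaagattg
Dtx3l: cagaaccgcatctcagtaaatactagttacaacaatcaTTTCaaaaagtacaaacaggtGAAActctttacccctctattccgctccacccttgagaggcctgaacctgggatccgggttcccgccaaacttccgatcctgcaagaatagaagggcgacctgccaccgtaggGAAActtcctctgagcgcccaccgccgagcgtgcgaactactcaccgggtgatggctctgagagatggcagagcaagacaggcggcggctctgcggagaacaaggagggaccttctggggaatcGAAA
Zc3hav1: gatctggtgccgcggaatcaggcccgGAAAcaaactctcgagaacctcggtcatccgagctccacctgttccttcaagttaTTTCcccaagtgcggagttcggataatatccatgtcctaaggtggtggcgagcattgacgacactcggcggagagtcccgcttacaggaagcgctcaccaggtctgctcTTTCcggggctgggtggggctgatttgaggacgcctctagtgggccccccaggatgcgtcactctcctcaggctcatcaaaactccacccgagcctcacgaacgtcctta
Zc3hav1l: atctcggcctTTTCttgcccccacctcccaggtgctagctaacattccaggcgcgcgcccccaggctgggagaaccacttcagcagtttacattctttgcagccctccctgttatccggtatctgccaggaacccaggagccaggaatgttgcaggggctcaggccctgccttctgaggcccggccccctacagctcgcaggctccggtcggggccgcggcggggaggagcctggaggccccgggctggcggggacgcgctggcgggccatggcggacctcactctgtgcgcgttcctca

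The Parp11 window held 11 half-sites, against a median of 3 over all 32851 windows (quartiles 1 and 4). The Dtx3l window held 4, Zc3hav1 3, Zc3hav1l 1, Parp12 2, Parp1 2 and the second Parp11 window (chr6:127453377-127453676, plus) 1. A pair of half-sites 2 bases apart makes the core GAAANNGAAA, which was searched on both strands. Among the 7 windows of 6 genes it was found once, in the first Parp11 window, on the minus strand 44 to 35 bases before the start (TTTCGATTTC as printed on the plus strand). It occurred in 3.44% of all windows. The palindromic gamma-activated site, TTCNNNGAA, was also found only there, 37 to 29 bases before the start and overlapping the first match by 3 bases, and it occurred in 8.3% of all windows. No entry was held for Parp9, Parp10 and Parp14. A short window without an exact match does not show that a gene lacks such sites.

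The deposited totals ran from 21608895 to 65983630 expected counts per tumor, and tumors of one group correlated at 0.95 to 0.993 on the log2 scale across genes. The lowest total and the lowest correlation both belonged to the CDN2 20 µg group of 2 doses. Its 2 tumors differed by a ratio over 2 for 27.4% of genes, against 12.2% in the next group. Levels are counts scaled to library size (CPM) after TMM scaling. Melanoma markers checked the labelled tissue, and all 7, among them Tyr and Sox10, were above 0 in every tumor. Their summed CPM was between 19910 and 25110 in 14 tumors, but 15070 and 16210 in the exoCDN2 tumors after 2 doses and 7409 and 12880 in the CDN2 20 µg tumors after 2 doses. Those last tumors also held the highest neutrophil sums (779 and 177 CPM) and skeletal muscle sums (3130 and 1547 CPM). Macrophage sums were 768 and 329 CPM there and 540 and 331 CPM in the exoCDN2 tumors of 2 doses, against at most 183 CPM elsewhere. The part of these other cells in the results was not tested. In bulk RNA, fewer cells of a type and less RNA in each cell cannot be told apart.

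The plot of levels by tumor shows the first 7 genes at their lowest in the PBS tumors of 2 doses. The same tumors held the highest Zc3hav1l, and their mean Parp1 was the highest of the 9 groups although one of its values fell among those of other groups.

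**Figure D1:**
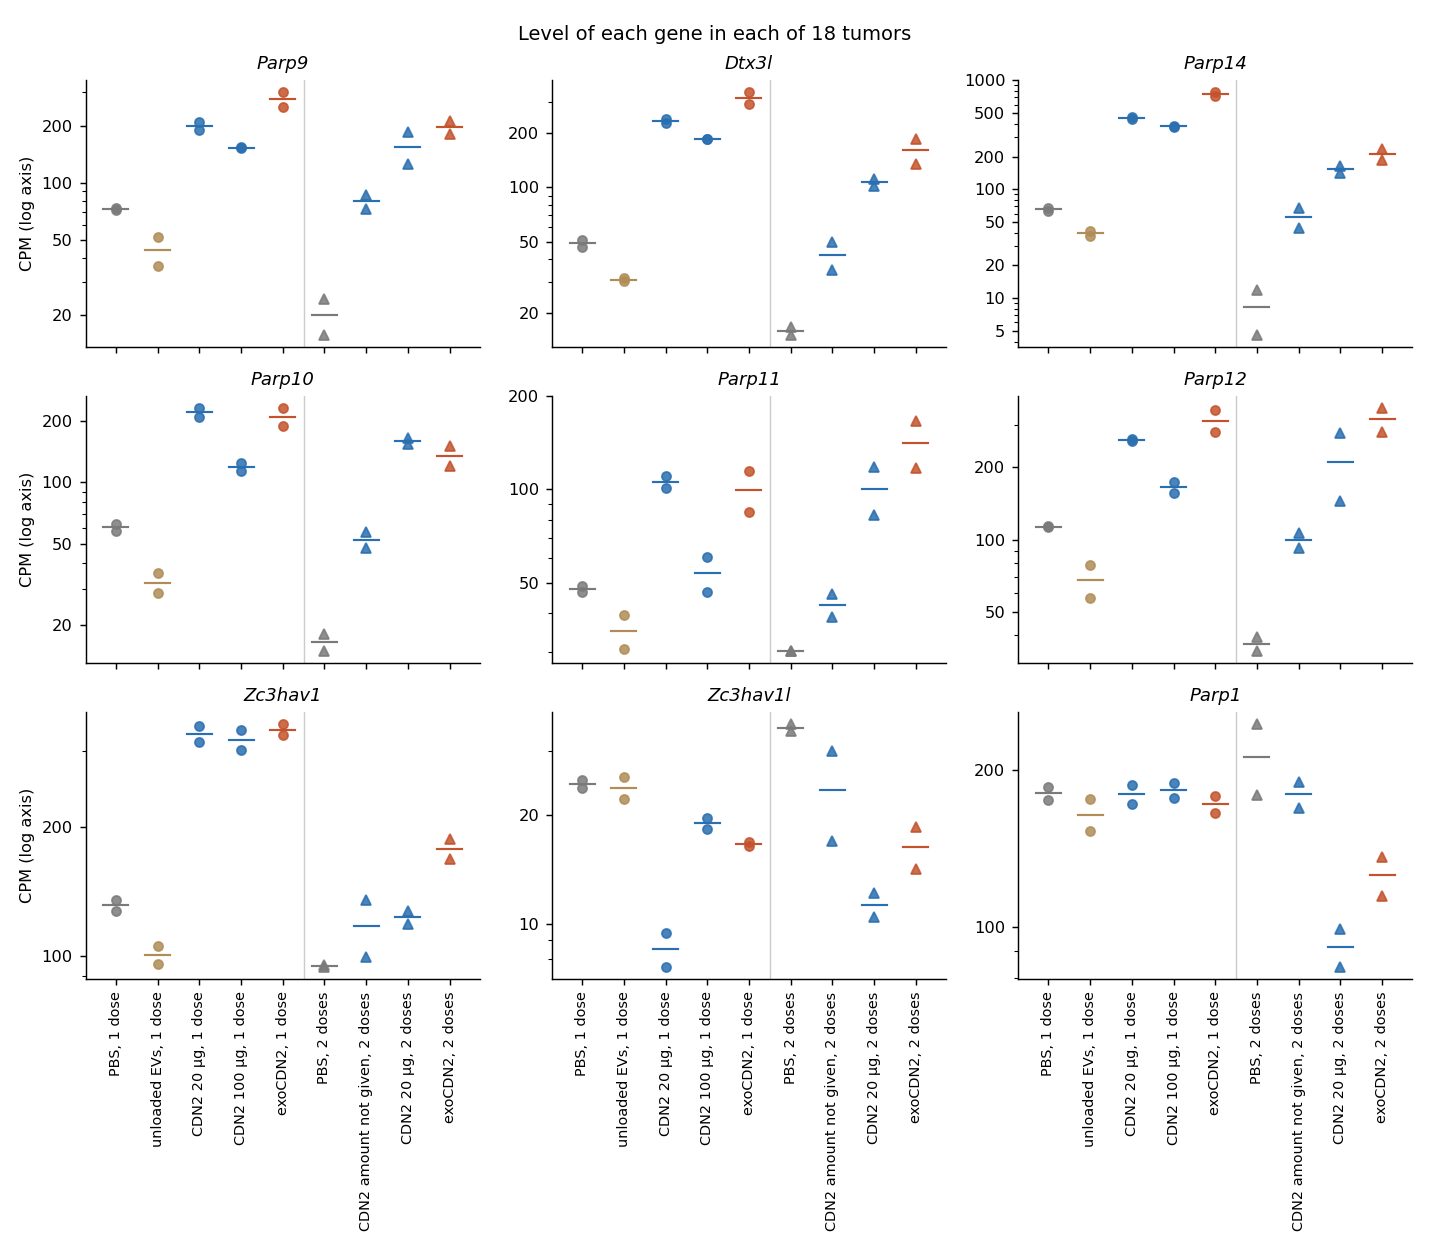
Level of each gene in CPM (log axis) in each of 18 tumors, by group; circles are tumors after 1 dose, triangles after 2 doses, and each short line is the mean of the 2 tumors of a group. Parp14 runs from 4.64 CPM in a PBS tumor of 2 doses to 785 CPM in an exoCDN2 tumor of 1 dose, while Parp1 stays between 84.0 and 245 CPM.

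Parp14, a mono-ADP-ribosyltransferase with macrodomains that read ADP-ribose, spanned the widest range of the 9 genes, 90.1-fold between group means. After 1 dose it stood at 67.3 and 63.8 CPM in PBS tumors, 41.5 and 37.5 with unloaded EVs, 440.1 and 459.8 with CDN2 20 µg, 374 and 384 with CDN2 100 µg and 716 and 785 with exoCDN2. After 2 doses it stood at 12.02 and 4.64 CPM with PBS, 66.8 and 43.8 with CDN2 of unstated amount, 142 and 165 with CDN2 20 µg and 234 and 187 with exoCDN2. The groups fell in an order in which only neighbouring groups touched, PBS of 1 dose with CDN2 of unstated amount. All agonist groups of stated amount lay above both PBS groups.

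Parp9, which works as a pair with DTX3L, and Dtx3l itself followed the same outline over a smaller range. Parp9 stood at 71.8 and 73.3 CPM in PBS tumors of 1 dose, 36.6 and 51.6 with unloaded EVs, 188 and 209 with CDN2 20 µg, 152 and 154 with CDN2 100 µg and 249 and 301 with exoCDN2. After 2 doses Parp9 stood at 24.5 and 15.8 CPM with PBS, 73.2 and 86.4 with CDN2 of unstated amount, 125 and 185 with CDN2 20 µg and 212 and 179.7 with exoCDN2. The exoCDN2 tumors of 1 dose were the highest for both genes and overlapped no other group. Dtx3l stood at 50.9 and 46.7 CPM in PBS tumors of 1 dose, 31.2 and 30.2 with unloaded EVs, 242 and 229 with CDN2 20 µg, 186 and 185 with CDN2 100 µg and 289.9 and 339.9 with exoCDN2. After 2 doses Dtx3l stood at 16.8 and 15.2 CPM with PBS, 49.99 and 34.8 with CDN2 of unstated amount, 102 and 112 with CDN2 20 µg and 187 and 136 with exoCDN2. Per kilobase of exon, Dtx3l was at 0.93 to 1.09 times the level of Parp9 in the 6 agonist tumors of 1 dose and at 0.34 to 0.82 times in the other 12 tumors.

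Parp10, Parp11 and Parp12, which attach single ADP-ribose units, differed in which group led. Parp10 was highest with CDN2 20 µg (209.8 and 231 CPM) and exoCDN2 (188 and 232) after 1 dose, which overlapped, and lower with CDN2 100 µg (113 and 125). It stood at 62.6 and 57.6 CPM with PBS, 28.6 and 35.8 with unloaded EVs, and after 2 doses at 14.9 and 18.1 with PBS, 47.5 and 56.9 with CDN2 of unstated amount, 164 and 154 with CDN2 20 µg and 150.1 and 119.9 with exoCDN2. Parp11 had its highest mean after the second exoCDN2 dose, where it stood at 166 and 117 CPM. After 1 dose Parp11 stood at 46.7 and 49.0 CPM with PBS, 30.6 and 39.6 with unloaded EVs, 101 and 110.0 with CDN2 20 µg, 46.8 and 60.6 with CDN2 100 µg and 84.6 and 115 with exoCDN2. Of the 7 interferon-induced genes, Parp11 was the one whose CDN2 100 µg tumors overlapped PBS. After 2 doses Parp11 stood at 30.2 in both PBS tumors, 46.2 and 38.9 with CDN2 of unstated amount and 83.0 and 118 with CDN2 20 µg. Parp12 stood at 112 and 114 CPM with PBS, 56.996 and 78.4 with unloaded EVs, 257 and 262 with CDN2 20 µg, 156 and 173 with CDN2 100 µg and 279 and 345 with exoCDN2 after 1 dose. After 2 doses Parp12 stood at 34.6 and 39.2 CPM with PBS, 106 and 92.4 with CDN2 of unstated amount, 144 and 276 with CDN2 20 µg and 353 and 279.6 with exoCDN2. The exoCDN2 tumors of 1 and 2 doses overlapped for Parp12, whereas those of Parp14 did not.

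Zc3hav1, the RNA-binding antiviral member, was highest in agonist tumors of 1 dose. After 1 dose it stood at 135 and 128 CPM with PBS, 106 and 96.1 with unloaded EVs, 343 and 314 with CDN2 20 µg, 335 and 301 with CDN2 100 µg and 326 and 346 with exoCDN2. After 2 doses it stood at 94.6 and 95.6 CPM with PBS, 135 and 99.7 with CDN2 of unstated amount, 119 and 128 with CDN2 20 µg and 187 and 168 with exoCDN2. The 3 agonist groups of 1 dose overlapped in a chain at the top, and the 2-dose CDN2 20 µg tumors lay within the range of the 4 PBS tumors.

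Zc3hav1l, by contrast, was lower in agonist than in PBS tumors of the same dose number in every group. It was highest in PBS tumors of 2 doses (33.9 and 35.6 CPM) and stood at 24.9 and 23.7 CPM in those of 1 dose and at 25.4 and 22.02 with unloaded EVs. After 1 dose it stood at 9.44 and 7.62 CPM with CDN2 20 µg, 18.3 and 19.5 with CDN2 100 µg and 16.4 and 16.8 with exoCDN2. After 2 doses it stood at 30.0 and 16.9 CPM with CDN2 of unstated amount, 12.2 and 10.4 with CDN2 20 µg and 14.1 and 18.5 with exoCDN2. The CDN2 20 µg tumors of 1 dose were the lowest and overlapped no other group. The level of Zc3hav1 per kilobase of exon was 2.70 and 2.80 times that of Zc3hav1l in PBS tumors of 2 doses, 5.45 and 5.40 times in those of 1 dose, 19.9 and 20.7 times with 1 dose of exoCDN2 and 36.4 and 41.4 times with 1 dose of CDN2 20 µg.

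Parp1, the DNA-repair member taken as a contrast, lay between 152 and 189 CPM in the 10 tumors of 1 dose. After 2 doses it stood at 179 and 245 CPM with PBS, 190.0 and 169 with CDN2 of unstated amount, 115 and 136 with exoCDN2 and 84.0 and 99.0 with CDN2 20 µg. The exoCDN2 and CDN2 20 µg tumors of 2 doses lay below the other 14. Per kilobase, Parp14 ran from 0.011 times the level of Parp1 in a PBS tumor of 2 doses to 2.70 times in an exoCDN2 tumor of 1 dose.

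Set against PBS tumors of the same dose number, 1 dose of exoCDN2 gave log2 ratios of 3.52 (SE 0.33) for Parp14, 2.69 (SE 0.16) for Dtx3l, 1.92 (SE 0.24) for Parp9, 1.81 (SE 0.17) for Parp10, 1.46 (SE 0.26) for Parp12, 1.35 (SE 0.12) for Zc3hav1 and 1.06 (SE 0.23) for Parp11. The same comparison gave -0.55 (SE 0.17) for Zc3hav1l and -0.07 (SE 0.16) for Parp1. With CDN2 20 µg the ratios ran from 1.14 for Parp11 to 2.78 for Parp14, with -1.51 (SE 0.17) for Zc3hav1l and -0.0046 (SE 0.16) for Parp1. With CDN2 100 µg, 4 genes exceeded a ratio of 2, and Parp11 stood at 0.17 (SE 0.23). All comparisons of 1 dose with PBS share the same PBS tumors, and so do those of 2 doses.

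After 2 doses of exoCDN2 the log2 ratios to PBS were 4.66 (SE 0.35) for Parp14, 3.33 (SE 0.17) for Dtx3l, 3.28 (SE 0.26) for Parp9, 3.10 (SE 0.28) for Parp12, 3.03 (SE 0.18) for Parp10, 2.23 (SE 0.24) for Parp11 and 0.90 (SE 0.12) for Zc3hav1. Zc3hav1l stood at -1.09 (SE 0.17) and Parp1 at -0.76 (SE 0.16). With CDN2 20 µg, Parp14 stood at 4.21 (SE 0.34), Parp10 at 3.27 (SE 0.18), Zc3hav1 at 0.38 (SE 0.12), Zc3hav1l at -1.62 (SE 0.17) and Parp1 at -1.21 (SE 0.17). CDN2 of unstated amount gave 2.73 (SE 0.33) for Parp14, from the fit of all 18 tumors, and 5 genes over a ratio of 2. With the PBS tumors of both dose numbers pooled, none of the 9 exceeded that ratio there, and Parp14 stood at 0.58. With a tumor left out, the Parp14 ratio after 2 doses ran from 4.13 to 5.51 with exoCDN2 and from 3.66 to 5.03 with CDN2 20 µg, lowest without the second PBS tumor and highest without the first. Of the 216 ratios of the 9 genes to PBS with a tumor left out, 30 moved by more than the spread between replicates. Pooling the PBS tumors moved 50 of 54, and it took the Parp14 ratio after 2 doses of exoCDN2 from 4.66 to 2.51 and after 1 dose from 3.52 to 4.35.

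**Figure D2:**
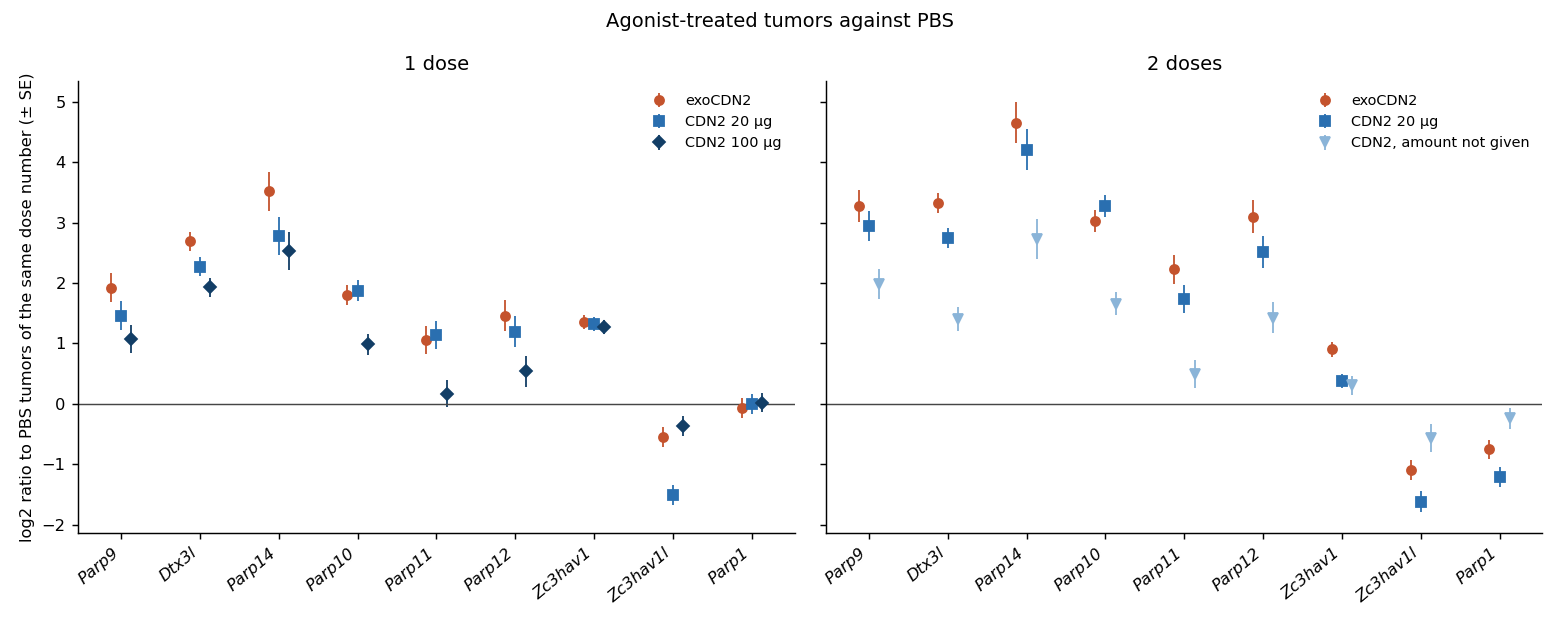
Log2 ratio (± SE) of agonist-treated to PBS tumors of the same dose number for the 9 genes, after 1 dose (left) and 2 doses (right). Parp14 has the highest ratio in all 6 comparisons, up to 4.66, Parp1 lies between -0.07 and 0.02 after 1 dose, and Zc3hav1l is below 0 in every comparison.

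The PBS tumors themselves differed with the number of doses, or with the time since the first dose, which cannot be told apart. The genes were not chosen by this comparison, but earlier results of these tumors were known. It also shares the PBS tumors of the ratios above. Of the 9 genes, 5 were called lower after 2 doses of PBS than after 1 (adjusted p under 0.05 by edgeR's quasi-likelihood test and a ratio over 2), where 1.05% of all genes were called lower. Parp14 fell by 2.97 (log2, SE 0.32, adjusted p = 0.000546), Parp10 by 1.86 (SE 0.17, adjusted p = 0.000295), Parp9 by 1.84 (SE 0.24, adjusted p = 0.00205), Parp12 by 1.62 (SE 0.26, adjusted p = 0.00779) and Dtx3l by 1.61 (SE 0.16, adjusted p = 0.000469). Each was lower in both tumors. The differences of Parp11 (-0.66), Zc3hav1 (-0.47), Zc3hav1l (0.52) and Parp1 (0.23) did not pass.

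Marker sums of other cells also differed here, although few markers were called. In this comparison 1 of 5 T cell, 0 of 4 keratinocyte and 0 of 6 macrophage markers were called lower. The summed T cell markers stood at 6.52 and 8.58 CPM in PBS tumors of 1 dose and 1.63 and 0.832 after 2, the keratinocyte markers at 114.5 and 61.8 against 0.429 and 0.0438, and the macrophage markers at 114 and 141 against 91.1 and 68.0. Their part in the result was not tested. The call for Parp12 ended without the second PBS tumor of 1 dose (adjusted p = 0.062), or without the first (0.0509) or second (0.0987) PBS tumor of 2 doses, within a range of 3.59e-14 to 0.0987 over 10 alternatives. The call for Parp14 ended with only the groups compared in the fit (adjusted p = 0.0504, range 1.93e-44 to 0.0504 over 10 alternatives). Without the first PBS tumor of 2 doses the Parp14 difference was -3.82, and without the second -2.45.

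Against the first dose, the second dose of exoCDN2 left 1 of the 9 genes called lower, where 2.34% of all genes were. Parp14 fell by 1.83 on the log2 scale (SE 0.31, adjusted p = 0.0043, lower in both tumors). At any ratio 4 passed, all lower, where 12.2% of all genes passed in either direction. Besides Parp14 these were Dtx3l (-0.97, SE 0.15, adjusted p = 0.00373), Zc3hav1 (-0.92, SE 0.12, adjusted p = 0.00165) and Parp10 (-0.64, SE 0.17, adjusted p = 0.0285). Parp12 differed by 0.02 (95% interval -0.54 to 0.57) and Parp11 by 0.50 (0.01 to 1.00, adjusted p = 0.173). Dtx3l lay at the edge of the ratio limit, and it was called without the first exoCDN2 tumor of 1 dose (-1.08, adjusted p = 0.0331) or of 2 doses (-1.22, adjusted p = 0.0159), within adjusted p of 2.68e-08 to 0.0393 over 10 alternatives. T cell (4 of 5), macrophage (3 of 6, with 1 lower), NK cell (1 of 3) and fibroblast markers (1 of 4) were called higher in the same comparison. The summed melanoma markers stood at 21720 and 19910 CPM after 1 dose and 15070 and 16210 after 2, with 0 of 7 called, and the part of these cells was not tested.

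With CDN2 20 µg, 3 of the 9 genes were called lower after the second dose, where 6.36% of all genes were. Parp14 fell by 1.54 (SE 0.30, adjusted p = 0.00314), Zc3hav1 by 1.41 (SE 0.12, adjusted p = 0.000187) and Dtx3l by 1.13 (SE 0.15, adjusted p = 0.000752). At any ratio 5 passed, where 36.2% of all genes did, and the others were Parp1 (-0.97, SE 0.16, adjusted p = 0.00164) and Parp10 (-0.47, SE 0.17, adjusted p = 0.0462). Parp9 (-0.35), Parp12 (-0.30), Parp11 (-0.06) and Zc3hav1l (0.41) did not pass. Other markers moved with it, with 3 of 7 melanoma and 1 of 4 dendritic cell markers called lower. Neutrophil (4 of 4), endothelial (4 of 4), fibroblast (3 of 4), skeletal muscle (3 of 4), macrophage (3 of 6) and NK cell markers (1 of 3) were called higher. The part of all these cells in the result was not tested. Parp1 was past the ratio of 2 without the second CDN2 20 µg tumor of 1 dose (-1.06, adjusted p = 0.00712) or of 2 doses (-1.15, adjusted p = 0.000515), within 1.02e-06 to 0.0816 over 10 alternatives.

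**Figure D3:**
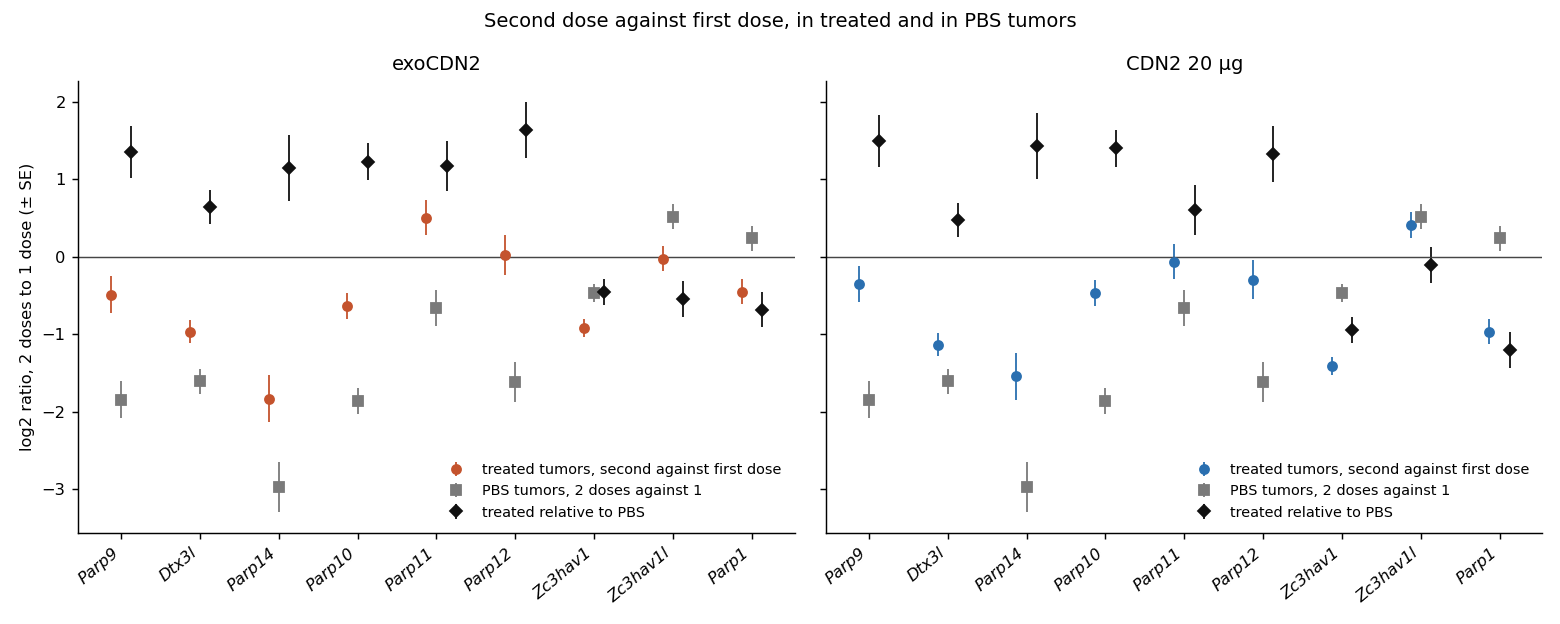
Log2 ratio (± SE) of tumors after 2 doses to tumors after 1 dose, for exoCDN2 (left) and CDN2 20 µg (right), for PBS tumors (squares), and for treated relative to PBS tumors (diamonds). Parp14 falls in treated (-1.83 and -1.54) and in PBS tumors (-2.97), and Parp1 lies below 0 in treated tumors (-0.45 and -0.97) and at 0.23 in PBS tumors.

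The change of treated tumors was then set against that of PBS tumors as an interaction. It equals the difference between the agonist ratios to PBS after 2 doses and after 1, so its p-values are not independent of the choice of genes. For exoCDN2, 4 of the 9 genes were called higher relative to PBS, where 5.12% of all genes were. They were Parp12 (1.64, SE 0.36, adjusted p = 0.0175), Parp9 (1.35, SE 0.34, adjusted p = 0.0296), Parp10 (1.23, SE 0.24, adjusted p = 0.00884) and Parp11 (1.17, SE 0.32, adjusted p = 0.0468). Parp14 stood at 1.14 (SE 0.42, adjusted p = 0.132), Dtx3l at 0.64 (SE 0.22, adjusted p = 0.0963), Parp1 at -0.69 (SE 0.23, adjusted p = 0.0937), Zc3hav1l at -0.54 (SE 0.23, adjusted p = 0.193) and Zc3hav1 at -0.45 (SE 0.17, adjusted p = 0.126). The count of 4 became 0 without the first exoCDN2 tumor of 1 dose or of 2 doses, 2 without the second exoCDN2 tumor of 1 dose, and 1 without either PBS tumor of 1 dose or the second PBS tumor of 2 doses. It became 3 without the first PBS tumor of 2 doses and 4 without the second exoCDN2 tumor of 2 doses. Over these 8 tumors left out in turn, the call was lost 7 times for Parp11, 6 times each for Parp9 and Parp12 and 2 times for Parp10. Macrophage (4 of 6), T cell (4 of 5), NK cell (1 of 3) and keratinocyte markers (1 of 4) were called higher in the same interaction, and their part was not tested.

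For CDN2 20 µg, 4 genes were called higher relative to PBS, where 11.7% of all genes were, and 1 lower, where 5.16% were. The higher genes were Parp9 (1.49, SE 0.34, adjusted p = 0.011), Parp14 (1.43, SE 0.43, adjusted p = 0.0335), Parp10 (1.40, SE 0.24, adjusted p = 0.00368) and Parp12 (1.32, SE 0.36, adjusted p = 0.0247), and the lower gene was Parp1 (-1.20, SE 0.23, adjusted p = 0.0059). At any ratio 6 passed, where 22% of all genes did, the other being Zc3hav1 (-0.94, SE 0.17, adjusted p = 0.0044). The count of 5 became 2 without the first CDN2 20 µg tumor of 1 dose or the second PBS tumor of 2 doses, and 3 without the second PBS tumor of 1 dose. Without the second PBS tumor of 2 doses Parp1 stood at -0.98 (adjusted p = 0.0185, range 2.74e-05 to 0.0398 over 14 alternatives) and Parp14 at 0.88. Without the second CDN2 20 µg tumor of 2 doses Parp12 stood at 0.71, and Zc3hav1 went past the ratio of 2 at -1.06. Zc3hav1 also went past it without the second CDN2 20 µg tumor of 1 dose (-1.03) or the first PBS tumor of 1 dose (-1.01). Over the 8 tumors left out in turn, the call was lost 7 times for Parp12, 5 times for Parp14, 1 time each for Parp9 and Parp1 and never for Parp10. With only the groups compared in the fit, Parp9 (adjusted p = 0.0609), Parp12 (0.0874) and Parp14 (0.15) were not called. Melanoma markers were called lower (4 of 7) and macrophage (4 of 6), neutrophil (3 of 4), T cell (3 of 5), endothelial (2 of 4) and fibroblast markers (2 of 4) higher in this interaction, and their part was not tested.

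exoCDN2 carried 0.1 µg of agonist and free CDN2 was given at 20 µg, so these groups differ in carrier and in amount, which cannot be told apart. After 1 dose none of the 9 genes was called between them, where 0.608% of all genes were, while 3 had an unadjusted p under 0.05, where 19.5% of all genes did, and DESeq2 called none. At any ratio 1 passed, where 1.06% of all genes did. That gene was Zc3hav1l, higher with exoCDN2 by 0.96 (SE 0.17, 95% interval 0.59 to 1.33, adjusted p = 0.0383). Parp14 was 0.74 higher (0.09 to 1.39, adjusted p = 0.202), Dtx3l 0.42 (0.09 to 0.75, adjusted p = 0.159) and Parp9 0.47 (-0.04 to 0.98, adjusted p = 0.295), and none of the 3 passed. Both exoCDN2 tumors lay above both CDN2 tumors for 5 of the 9 genes, and for 30.9% of all genes. Parp10 (-0.43 to 0.29), Zc3hav1 (-0.22 to 0.29) and Parp1 (-0.42 to 0.29) had intervals on both sides of 0. The Zc3hav1l difference ranged from 0.81 to 1.14 and its adjusted p from 3.93e-05 to 0.447 over 10 alternatives. Endothelial markers (3 of 4) were called higher with exoCDN2 in the same comparison, and their part was not tested.

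After 2 doses again none was called by edgeR or DESeq2, where 19.4% of all genes were called by edgeR, while 5 had an unadjusted p under 0.05, where 48.3% of all genes did. At any ratio 4 passed, all higher with exoCDN2, where 37.4% of all genes passed in either direction. They were Zc3hav1 (0.52, SE 0.12, adjusted p = 0.0072), Dtx3l (0.59, SE 0.15, adjusted p = 0.0131), Zc3hav1l (0.53, SE 0.17, adjusted p = 0.0297) and Parp1 (0.45, SE 0.16, adjusted p = 0.0464). Parp12 differed by 0.58 (95% interval 0.03 to 1.14, adjusted p = 0.0903), Parp14 by 0.45 (-0.20 to 1.10, adjusted p = 0.245) and Parp10 by -0.24 (-0.60 to 0.12, adjusted p = 0.267). Without the second CDN2 20 µg tumor of 2 doses Parp12 was called (1.16, adjusted p = 0.000877, range 0.000877 to 0.546 over 10 alternatives). Melanoma (2 of 7), T cell (2 of 5), macrophage (1 of 6), dendritic cell (1 of 4) and endothelial markers (1 of 4) were called higher with exoCDN2. Neutrophil (3 of 4), skeletal muscle (3 of 4) and fibroblast markers (2 of 4) were called lower. The part of all these cells was not tested.

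**Figure D4:**
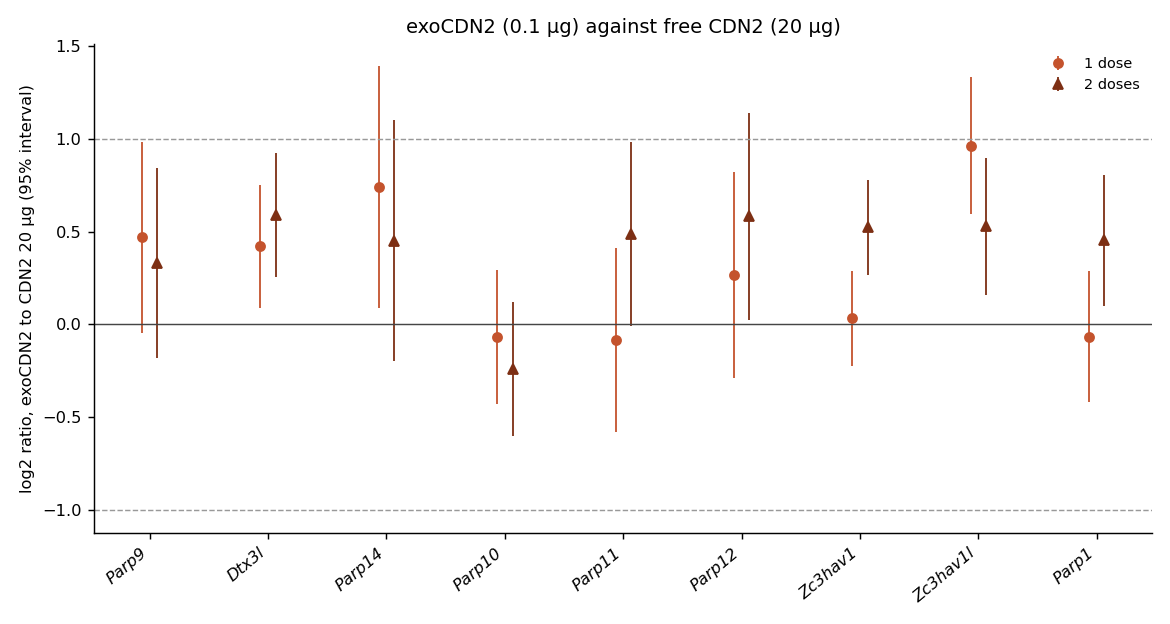
Log2 ratio of exoCDN2 to CDN2 20 µg tumors with its 95% interval, after 1 dose (circles) and 2 doses (triangles); dashed lines mark a ratio of 2 either way. No estimate lies beyond the dashed lines, and Zc3hav1l after 1 dose comes nearest at 0.96.

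Between the amounts of free CDN2 after 1 dose, Zc3hav1l was the 1 gene called, higher with 100 µg than with 20 µg by 1.15 (SE 0.17, adjusted p = 0.0309, both tumors higher), where 0.23% of all genes were called higher. At any ratio 2 passed, where 0.532% of all genes did, the other being Parp10, lower with 100 µg (-0.89, SE 0.17, adjusted p = 0.0483). Parp11 stood at -0.97 (95% interval -1.47 to -0.47, adjusted p = 0.0779), Parp12 at -0.65 (-1.21 to -0.10, adjusted p = 0.226) and Parp14 at -0.25 (-0.89 to 0.40, adjusted p = 0.714). The Zc3hav1l call ended without any 1 of the 4 tumors, at adjusted p = 0.0785 and 0.269 without the first and second tumor of 100 µg and 0.121 and 0.146 without those of 20 µg, with differences from 0.997 to 1.305 (adjusted p from 6.31e-07 to 0.269 over 10 alternatives). Endothelial markers moved with it, with 3 of 4 higher at 100 µg. Their summed CPM was 72.5 and 98.2 with 100 µg, 27.4 and 28.1 with 20 µg, and 74.0 and 77.3 with PBS, and their part was not tested.

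**Figure D5:**
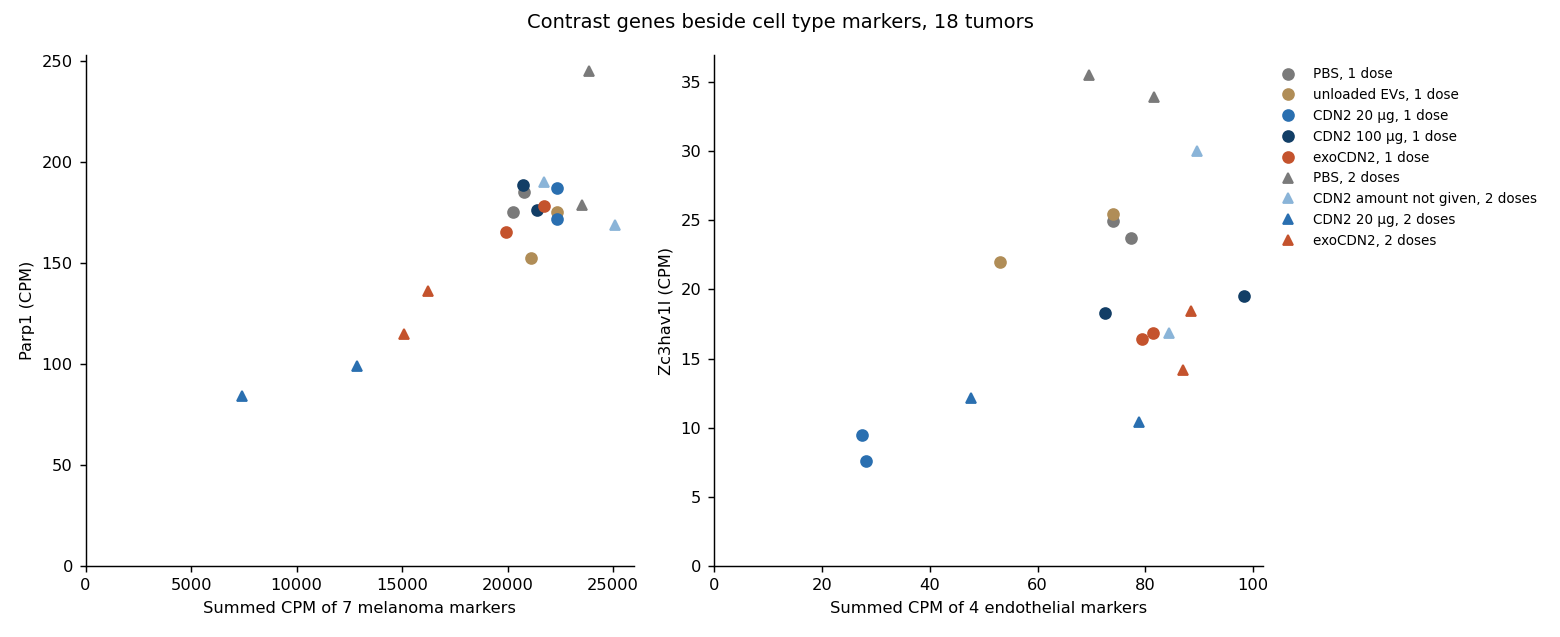
Parp1 against the summed CPM of 7 melanoma markers (left) and Zc3hav1l against that of 4 endothelial markers (right) in 18 tumors; circles are 1 dose and triangles 2 doses. The 4 tumors lowest in Parp1 (84.0 to 136 CPM) are also the 4 lowest in melanoma markers. The 2 lowest in Zc3hav1l (9.44 and 7.62 CPM) are the lowest in endothelial markers. The next, CDN2 20 µg tumors of 2 doses (12.2 and 10.4 CPM), have endothelial sums of 47.6 and 78.7 CPM. Those of exoCDN2 tumors of 1 dose (16.4 and 16.8 CPM) are 79.3 and 81.3 CPM. PBS tumors of 2 doses (33.9 and 35.6 CPM) have endothelial sums of 81.5 and 69.6 CPM.

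Unloaded EVs gave no called gene against PBS by edgeR, among the 9 or among all genes (0%). The smallest adjusted p over all genes was 0.381. An unadjusted p under 0.05 was found for 6 of the 9 genes, and for 3.19% of all genes. DESeq2 called none of the 9, but 35 of all genes, 6 higher and 29 lower. Parp10 stood at -0.90 (95% interval -1.27 to -0.53), Parp12 at -0.74 (-1.30 to -0.18), Parp14 at -0.73 (-1.38 to -0.08), Parp9 at -0.72 (-1.24 to -0.20) and Dtx3l at -0.67 (SE 0.15). Both EV tumors lay below both PBS tumors for 7 of the 9 genes, and for 23.5% of all genes. Zc3hav1l (-0.03) and Parp1 (-0.14) overlapped. Summed T cell markers stood at 1.92 and 5.25 CPM with unloaded EVs and 6.52 and 8.58 with PBS. Keratinocyte sums were 50.4 and 0.2 CPM against 114.5 and 61.8. Macrophage sums overlapped, at 83.9 and 183 CPM against 114 and 141. None of these markers was called, and the part of these cells was not tested.

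The genes around this family were described from lists. In the path from the interferon receptor to the nucleus (12 genes), 5 were called higher with 1 dose of exoCDN2, 4 each with CDN2 20 µg and 100 µg, 6 each with 2 doses of exoCDN2 and of CDN2 20 µg, and 5 with CDN2 of unstated amount, with none lower. Over all genes, 2.2%, 2.26%, 1.82%, 8.87%, 20% and 0.918% were called higher in these comparisons and 0.425%, 0.886%, 0.62%, 2.48%, 10.6% and 0.0409% lower. The list's median log2 ratio was 0.63, 0.65, 0.16, 1.03, 1.13 and 0.36, beside medians between -0.02 and 0.01 over all genes. The list overlaps the known inducers and targets of interferon and was chosen with results known.

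Irf1, a transcription factor of interferon responses, rose by 2.76 (SE 0.31, adjusted p = 0.000345) with 1 dose of exoCDN2, from 126 and 145 CPM with PBS to 838 and 1000 CPM. Irf9, which binds DNA together with STAT2, rose by 1.36 (SE 0.11, adjusted p = 4.07e-05), Stat2 by 2.47 (SE 0.20, adjusted p = 4.02e-05) and Irf7 by 2.29 (SE 0.27, adjusted p = 0.000471). As with the PARPs, Irf1 (-2.84), Irf7 (-2.05), Stat2 (-1.38) and Irf9 (-1.13) were called lower in PBS tumors of 2 doses than of 1.

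Trim25, the ubiquitin ligase that ZAP needs, was the 1 of 4 ZAP partners called in each comparison with PBS at a stated amount. Over all genes, 1.82% to 20% were called higher there. Trim25 was higher by 2.19 (SE 0.15, adjusted p = 1.58e-05) with 1 dose of exoCDN2 and 2.23 (SE 0.15, adjusted p = 2.87e-06) with 2. Its level was lower after 2 doses than after 1 in both groups. With exoCDN2 it stood at 289 and 296 CPM after 1 dose and 154 and 132 after 2. With PBS it stood at 67.6 and 60.5 CPM after 1 dose and 28.4 and 32.5 after 2. With CDN2 of unstated amount Trim25 stood at 0.60 (adjusted p = 0.169). Of 9 other PARP genes, 1 was called higher with 1 dose of exoCDN2 and 2 with CDN2 20 µg, where 2.2% and 2.26% of all genes were. After 2 doses, 2 were called higher with exoCDN2 and 3 with CDN2 20 µg, where 8.87% and 20% of all genes were. With 100 µg and with the unstated amount none was called higher, where 1.82% and 0.918% of all genes were. None was called lower against PBS. Parp8 rose by 1.25 (SE 0.22, adjusted p = 0.00731) with 1 dose of exoCDN2, Parp3 by 1.91 (SE 0.23, adjusted p = 0.000208) with 2 doses of it, and Tiparp by 1.298 (SE 0.23, adjusted p = 0.000844) and Parp6 by 1.04 (SE 0.27, adjusted p = 0.00746) with 2 doses of CDN2 20 µg.

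Genes that remove or read ADP-ribose were called in 1 comparison with PBS, 2 of 7 higher after 2 doses of CDN2 20 µg. In that comparison 20% of all genes were called higher. The 2 genes of the list were Adprhl1 (5.35, SE 0.76, adjusted p = 0.000236), known from heart muscle, and Macrod1 (1.61, SE 0.24, adjusted p = 0.000332), a hydrolase of mitochondria. The skeletal muscle marker sum was highest in the same tumors. Of 4 deltex-related ligases tested, Dtx4 rose with 2 doses of exoCDN2 (1.76, SE 0.53, adjusted p = 0.0376) and of CDN2 20 µg (3.31, SE 0.55, adjusted p = 0.000599). Over all genes, 8.87% and 20% were called higher in these comparisons. The Dtx4 call with exoCDN2 ended without the first exoCDN2 tumor of 2 doses or without either PBS tumor of 2 doses. Of 12 tested genes of NAD supply and use, 4 were called higher after 2 doses of CDN2 20 µg, where 20% of all genes were. They were Bst1, a surface enzyme of myeloid cells that uses NAD (5.13, SE 0.63, adjusted p = 0.000106), Nmrk2, a muscle kinase of the salvage path (3.24, SE 0.44, adjusted p = 0.000171), Naprt (2.75) and Nmrk1 (1.24). Naprt lay near the floor, at 4.2 and 1.17 CPM with CDN2 20 µg and 0.429 and 0.35 with PBS. Bst1 also rose with 2 doses of exoCDN2 (3.88, SE 0.60, adjusted p = 0.000987), and Nmrk2 with CDN2 100 µg (3.25, SE 0.58, adjusted p = 0.0109). That Nmrk2 difference lay near the floor, at 0.0219 and 0.0396 CPM with PBS and 0.293 and 0.346 with CDN2 100 µg. Unloaded EV tumors held 0.1945 and 0.1499 CPM of Nmrk2. Nampt, the main enzyme of NAD salvage, rose with CDN2 of unstated amount (1.09, SE 0.21, adjusted p = 0.019). It stood at 345 and 567 CPM there and at 229 and 199 with PBS. With the PBS tumors of both dose numbers pooled, no gene was called for that group. Of 6 repair partners of PARP1, 1 was called lower with 2 doses of CDN2 20 µg, where 10.6% of all genes were. It was the histone chaperone Aplf (-1.05, SE 0.17, adjusted p = 0.000572).

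As a description over the 18 tumors, which share treatments and depth, the 7 interferon-induced genes correlated with each other at Pearson r of 0.583 to 0.98 on log2 CPM. Zc3hav1l stood at -0.849 to -0.54 and Parp1 at -0.568 to 0.133 with them. The 7 genes and the contrasts were chosen with results known, so this difference is not independent evidence. The genes most like each one were Irgm2 (0.982), Irgm1 and Trim34a for Parp9, Trim21 (0.986), Stat2 and Parp14 for Dtx3l, Tnfsf10 (0.987), Dtx3l and Trim21 for Parp14, and Batf2 (0.98), Oasl2 and Socs1 for Parp10. For Parp11 they were Gbp11 (0.962), Slc39a2 and Mov10, for Parp12 Irgm2 (0.973), Trim34a and Parp9, and for Zc3hav1 Ncoa7 (0.967), Znfx1 and Plekhf2. Zc3hav1l was most like Fzd4 (0.933), Tmem56 and Slc20a1, and Parp1 most like Gusb (0.987), Troap and Ncapd2.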

How the data were processed

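RNA of 18 whole tumors was sequenced. The authors aligned the reads to the mouse genome (mm10) with OSA and made expected counts per gene with RSEM, deposited without normalization, and these were rounded here because 8.75% to 12.7% of the values were not whole. Totals were 21608895 to 65983630 per tumor. edgeR 4.0.16 (R 4.3.3) was run with TMM factors, a filter on low counts (minimum count 10, minimum total 15) and 1 mean per group, as a quasi-likelihood test over 16 tumors of 8 groups and 16927 genes. The tumors given an unstated amount of CDN2 entered a second fit of all 18. Called means a Benjamini-Hochberg adjusted p under 0.05 over all genes and a ratio over 2. Symbols were matched for 50376 of 50600 identifiers. Scripts were tested on simulated data. Alternatives were DESeq2 1.42.0, RLE factors, no filter, a replicate block, other sets of tumors and leaving out each tumor.

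The 9 genes and all lists were chosen with earlier results of these data known. Named genes outside the 9 were at most 4 called genes of a list in a comparison with PBS, by smallest p, Trim25, Irf1 and Irf9 called or not, and the 3 genes with the highest Pearson r to each of the 9. Promoters came from RefSeq (GRCm38.p6) for 6 of the 9 genes. The strand setting of the counting was not given in the sources used here. One gene of the named-gene rule is not reported here.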

Additional observations from a re-analysis of the deposited data

Results flagged for a closer look

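The change from the first to the second dose differed between treated and PBS tumors for several genes, by the test of the difference itself (edgeR's quasi-likelihood test, adjusted over all genes). With exoCDN2 the log2 difference was 1.35 for Parp9, 1.23 for Parp10, 1.17 for Parp11 and 1.64 for Parp12. With CDN2 20 µg it was 1.49 for Parp9, 1.40 for Parp10, 1.32 for Parp12, 1.43 for Parp14 and -1.20 for Parp1. In the exoCDN2 tumors alone, the changes were -0.49 for Parp9, -0.64 for Parp10, 0.50 for Parp11 and 0.02 for Parp12. In the CDN2 20 µg tumors alone, they were -0.35 for Parp9, -0.47 for Parp10, -0.30 for Parp12, -1.54 for Parp14 and -0.97 for Parp1. PBS tumors changed by -1.84 for Parp9, -1.86 for Parp10, -0.66 for Parp11, -1.62 for Parp12, -2.97 for Parp14 and 0.23 for Parp1. Most of the interaction calls depended on single tumors. Leaving out each of 8 tumors in turn, the call with exoCDN2 was lost 7 times for Parp11, 6 times each for Parp9 and Parp12 and 2 times for Parp10. With CDN2 20 µg it was lost 7 times for Parp12, 5 times for Parp14, 1 time each for Parp9 and Parp1 and never for Parp10. The interaction is the difference between the agonist ratios to PBS after 2 doses and after 1, so it is not independent of the choice of genes. Groups of 2 tumors were too small for a search for outlying tumors.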

How the results depend on the processing

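With 2 tumors per group, leaving out 1 tumor left a group with a lone tumor that was assumed to vary like the others, and small differences were not detectable. Of the tested values of the 9 genes under all alternatives, 800 kept direction and side of the threshold, 49 lost their call, 13 gained one and 20 turned direction, and where no cause is shown the cause was not tested.

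Without a limit on the ratio, which only loosens the rule, the count of genes called was 1 for exoCDN2 against CDN2 20 µg after 1 dose and 4 after 2, 4 for the second against the first dose of exoCDN2 and 5 of CDN2 20 µg, and 2 for 100 µg against 20 µg. DESeq2 and RLE factors each called 2 in the second against the first dose of exoCDN2. All 18 tumors gave 0 for 100 µg against 20 µg. A fit of only the groups compared gave 2 for CDN2 20 µg relative to PBS, ended the calls of Parp14 between the PBS groups (adjusted p = 0.0504) and of Dtx3l in the second against the first dose of CDN2 20 µg (adjusted p = 0.0616), and gave 3 called list genes in place of 6 for CDN2 of unstated amount. With pooled PBS tumors that group had 0 of the 9 genes over a ratio of 2, in place of 5, and 0 called list genes.

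Leaving out 1 tumor, the called counts were 0 to 1 for exoCDN2 against CDN2 20 µg after 2 doses, 1 to 2 for the second against the first dose of exoCDN2, 3 to 4 for that of CDN2 20 µg, 0 to 0 for 100 µg against 20 µg, 0 to 4 for exoCDN2 relative to PBS, 2 to 5 for CDN2 20 µg relative to PBS, 4 to 5 for PBS, and 3 to 6 list genes for CDN2 of unstated amount.

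Only values that were not called turned direction. Most lay near 0, but Parp12 stood at -0.30 in the second against the first dose of CDN2 20 µg. Parp1 stood at 0.23 in PBS tumors of 2 doses against 1. Parp12 in the second against the first dose of exoCDN2 was -0.0265 with DESeq2 and RLE factors, -0.0015 with only the groups compared, and -0.16 to 0.18 with a tumor left out. With a tumor left out Zc3hav1l there was -0.23 to 0.15. Against CDN2 20 µg after 1 dose, exoCDN2 gave -0.224 to 0.0719 for Parp10, -0.32 to 0.12 for Parp11, -0.0294 to 0.114 for Zc3hav1 and -0.127 to 0.0142 for Parp1. The second against the first dose of CDN2 20 µg gave -0.40 to 0.15 for Parp11 and -0.894 to 0.0793 for Parp12. For 100 µg against 20 µg the ranges were -0.132 to 0.0252 for Zc3hav1 and -0.0416 to 0.0807 for Parp1, for unloaded EVs -0.144 to 0.0638 for Zc3hav1l, and for PBS -0.0096 to 0.44 for Parp1.

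Tumors of different groups share only a number in their titles, and same-numbered tumors did not deviate together (r from -0.184 to 0.319, mean 0.014, over 36 pairs of groups). With the replicate block the call counts of the 9 genes were unchanged in the 9 tested comparisons, for example 4 for exoCDN2 and 5 for CDN2 20 µg relative to PBS.

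Counts over all genes moved more. edgeR as reported, DESeq2, and the lowest and highest alternative called 103, 380, 0 and 707 genes for exoCDN2 against CDN2 20 µg after 1 dose, 3279, 3346, 30 and 6257 after 2 doses, 1260, 1475, 175 and 1886 for the second against the first dose of exoCDN2, and 3521, 3554, 629 and 6054 for that of CDN2 20 µg. In the same order they called 77, 386, 0 and 800 for 100 µg against 20 µg, 0, 35, 0 and 227 for unloaded EVs, 186, 388, 85 and 766 for PBS, 1154, 1571, 494 and 2045 for exoCDN2 relative to PBS, and 2848, 3303, 1179 and 5661 for CDN2 20 µg relative to PBS. Against PBS they called 444, 711, 146 and 1300 with 1 dose of exoCDN2, 532, 746, 167 and 1076 with CDN2 20 µg, 413, 667, 86 and 1352 with 100 µg, 1920, 2064, 902 and 2446 with 2 doses of exoCDN2, 5177, 5165, 3060 and 7363 with CDN2 20 µg, and 164, 356, 0 and 713 with CDN2 of unstated amount.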
